A study of Mus musculus and Homo sapiens with 43 samples.

Results

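The mitochondrial tRNA probes are the oligonucleotides whose name begins with m followed by an amino acid, such as mLeu, and the prefix was read here as mitochondrial. There were 20 of them among the 70 probes of each tRNA table, 1 for each amino acid, and the other 50 name a cytosolic tRNA by amino acid and anticodon. The series measured charged tRNA, which carries its amino acid, and total tRNA in 12 libraries, 3 of each kind from mcf10a and 3 of each kind from HCC1806. The series text describes mcf10a as non-transformed and high in the leucyl-tRNA synthetase LARS, and HCC1806 as breast cancer cells low in LARS, although a tag of the labels calls both a breast cancer cell line. HCC1806 was kept in RPMI with 10% FBS, sodium pyruvate and HEPES, while the labels give DMEM with 10% FBS otherwise, and the effects of the line and of its medium cannot be told apart. Both lines are human, and no treatment or genetic change is labelled for them.

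Mitochondria keep their own small genome, which encodes the full set of tRNAs that their ribosomes need to make the core subunits of the respiratory chain. Each strand is transcribed as a long precursor. The transcript from the heavy-strand promoter holds both ribosomal RNAs, nearly all mRNAs and most tRNAs, and that from the light-strand promoter holds the ND6 mRNA and the remaining tRNAs. The tRNAs lie between the longer genes and are cut out at both ends, so neighbours on a strand are made from the same precursor. They are then modified, given a CCA end and charged by synthetases encoded in the nucleus, most of which differ from the cytosolic enzymes. Leucine, for example, is attached by LARS2 in mitochondria and by LARS in the cytosol.

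By the textbook map of the human mitochondrial genome, 12 probes name tRNAs of the heavy-strand transcript and 7 name tRNAs of the light-strand transcript. The mSer probe was left out of both groups because mitochondria have a serine tRNA on each strand. The leucine tRNAs both come from the heavy-strand transcript, and the name mLeu does not say which of them the probe reads. The tables give 1 mean normalized count per probe, the log2 fold change between the lines with its standard error (SE) and an adjusted p, and no value per library. Total counts are therefore unknown, and the SE is the only measure of precision. It is an error from the DESeq2 model, and the spread between the replicates of a probe cannot be seen directly. Nothing says whether the 3 libraries of a kind came from separate cultures, so the p-values may measure technical spread only. Neither table says which line its fold changes are relative to, so values are given as positive or negative and no line is called higher. These tables hold no mRNA, so the identity of the lines was not checked against markers.

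The mitochondrial probes held a small part of the signal. Their mean counts summed to 3.69% of the charged table and 4.70% of the total table. The highest mean counts in the authors' deposited tables belonged to mPro (55067 charged, 9906 total), mGlu (37447 and 12614) and mAsn (17632 and 8823). At the lower end stood mCys, mMet, mTrp and mAsp, between 136.3 and 411.9 charged and between 86.5 and 147.7 total. The authors' deposited tables gave mTyr a mean of 2.45 charged and 1.38 total, and mArg a mean of 0 charged and 0.0243 total. These last probes were therefore hardly read at all, and their values say nothing about the lines. A mean count also depends on how well a probe works, so the order of the probes is not an order of tRNA amounts.

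Precision followed the counts. The SE lay between 0.21 and 3.82 for the 19 mitochondrial probes with a charged value, with a median of 0.49, against a median of 0.18 for the cytosolic probes. For total tRNA the medians were 0.58 and 0.23. Across the mitochondrial probes, which share their libraries, the SE and the log2 mean count had a Spearman rho of -0.74 (19 probes, charged) and -0.83 (20 probes, total). A probe of median precision thus has a 95% interval of about 1 log2 unit to each side, and smaller differences in such probes were not detectable.

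At a DESeq2 adjusted p under 0.05 over all probes, 3 of 19 mitochondrial probes passed for charged tRNA, against a background of 20.3% of all probes. They were mAsn, which was positive (background 7.25%), and mHis and mPro, which were negative (background 13%). For total tRNA 3 of the 16 with an adjusted p passed, against a background of 20%. Positive calls were mAsn and mAla (background 12.3%), and the negative call was mHis (background 7.69%). These shares are near the background, so the mitochondrial probes as a group did not stand out by the number that passed. Their SE were larger than those of the cytosolic probes, so similar shares do not show that similar numbers differed. The 2 probes that passed in both tables were mAsn and mHis. With a t reference of 4 degrees of freedom in place of the normal one, 0 mitochondrial probes passed in either table, with adjusted p from 0.173 to 0.189 for the 3 charged calls and from 0.0903 to 0.28 for the 3 total calls. Unadjusted, the same 3 probes of each table stayed under 0.05 with that reference. It raises the p of every probe, cytosolic ones included. The share of all probes that passed with it was not counted, so the loss is not particular to the mitochondrial probes.

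Among the light-strand tRNAs, mAsn differed most between the lines. Asparagine tRNA carries queuosine, a modified guanosine at the first anticodon base. In the authors' deposited tables mAsn stood at a log2 fold change of 2.34 charged (SE 0.71, DESeq2 adjusted p = 0.00627), a 5.06-fold difference. Its total value in the authors' deposited table was 2.92 (SE 0.58, DESeq2 adjusted p = 7.34e-06), a 7.56-fold difference. The 95% intervals, 0.95 to 3.73 and 1.78 to 4.05, overlap over most of their length.

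The alanine, glutamine and glutamate tRNAs of this strand had positive values that were smaller than those of mAsn. mAla, beside mAsn in the genome, stood at 0.55 charged (SE 0.26, DESeq2 adjusted p = 0.111) and at 1.19 total (SE 0.42, DESeq2 adjusted p = 0.0262) in the authors' deposited tables. Its total value, a 2.28-fold difference, passed and its charged value did not. mGln, the tRNA that is charged in mitochondria by way of glutamate and an amidotransferase, stood in the authors' deposited tables at 0.48 charged (SE 0.60) and 1.07 total (SE 0.46, DESeq2 adjusted p = 0.076). mGlu stood at 0.17 charged (SE 0.23) and 1.08 total (SE 0.44, DESeq2 adjusted p = 0.0585) in the same tables. These last probes missed the threshold, with 95% intervals for total tRNA of 0.17 to 1.97 and 0.22 to 1.93.

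The proline tRNA lies nearest the light-strand promoter. In the authors' deposited tables mPro stood at -0.84 charged (SE 0.21, DESeq2 adjusted p = 0.000997) and at 0.78 total (SE 0.45, DESeq2 adjusted p = 0.177). The charged value passed on the negative side, a 1.79-fold difference, while the total value was positive and did not pass, with a 95% interval of -0.09 to 1.66. mCys, whose tRNA gene is the other neighbour of mAsn, stood at -0.20 charged (SE 0.66) and 0.19 total (SE 0.72), intervals that allow a difference of over 1 log2 unit in either direction. mTyr stood at 1.57 charged (SE 3.82) and -0.09 total (SE 2.79) in the authors' deposited tables, values without precision at its mean counts.

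Read in order from the light-strand promoter, the total values were 0.78 for mPro, 1.08 for mGlu, -0.09 for mTyr, 0.19 for mCys, 2.92 for mAsn, 1.19 for mAla and 1.07 for mGln. A trend with distance from the promoter was not tested, and the SE of these values ran from 0.42 to 2.79. The median of the 7 light-strand probes was 1.07 total and 0.48 charged, with 6 positive of 7 for total tRNA and 5 of 7 for charged tRNA. Without mTyr, which was hardly read, 6 of 6 were positive for total and 4 of 6 for charged tRNA, with medians of 1.07 and 0.32. Without mAsn the medians would be 0.93 and 0.32. At an unadjusted p under 0.05, 4 of the 7 passed for total tRNA against a background of 31.4%, and 3 of the 7 for charged tRNA against a background of 30.4%.

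Among the heavy-strand tRNAs, mHis was the 1 probe that passed. Histidine tRNA also carries queuosine. In the authors' deposited tables mHis stood at -0.88 charged (SE 0.23, DESeq2 adjusted p = 0.00157), a 1.84-fold difference. Its total value in the authors' deposited table was -1.63 (SE 0.25, DESeq2 adjusted p = 5.74e-09), a 3.09-fold difference and the smallest adjusted p of any mitochondrial probe. The 95% intervals were -1.34 to -0.42 charged and -2.13 to -1.13 total.

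The other heavy-strand probes did not pass in either table. The phenylalanine and valine tRNAs flank the small ribosomal RNA at the start of the transcript. In the authors' deposited tables mPhe stood at 0.56 charged (SE 0.49) and 0.76 total (SE 0.69). mVal stood at -0.24 charged (SE 0.27) and -0.05 total (SE 0.45) in these tables. The mLeu probe, whose tRNA is a substrate of LARS2, stood in the authors' deposited tables at 0.17 charged (SE 0.28) and 0.36 total (SE 0.45). Its 95% intervals of -0.38 to 0.71 and -0.53 to 1.26 lie within 1 log2 unit of 0 for charged tRNA and reach past it for total tRNA.

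Further along lie the isoleucine and methionine tRNAs, which enclose the light-strand glutamine tRNA, and the tryptophan tRNA, which borders the light-strand cluster of mAla, mAsn, mCys and mTyr. In the authors' deposited tables mIle stood at 0.62 charged (SE 0.51) and -0.04 total (SE 0.49), with the sign differing between the tables. mMet, the tRNA used in mitochondria for both initiation and elongation, stood at 0.97 charged (SE 0.74) and 0.14 total (SE 0.72). mTrp stood at -0.77 charged (SE 0.76) and -0.94 total (SE 0.87), negative in both tables and with intervals that include 0. mAsp stood at 1.33 charged (SE 1.11) and 0.83 total (SE 1.07) in the authors' deposited tables. The 3 probes mMet, mTrp and mAsp had low mean counts of 400.3, 253.2 and 136.3 charged, and their SE were the largest on this strand after mArg.

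The lysine, glycine and threonine tRNAs lie in the later part of the transcript, as does mHis above. In the authors' deposited tables mLys stood at -0.16 charged (SE 0.36) and 0.57 total (SE 0.58). mGly stood at 0.05 charged (SE 0.40) and 0.33 total (SE 0.57) in these tables. mThr, whose tRNA is the last on the strand, stood at 0.00 charged (SE 0.32) and 0.57 total (SE 0.54). mArg had no charged value, as its mean count was 0, and a total value of -2.41 (SE 4.01) in the authors' deposited table that rests on a mean count of 0.0243. Over the heavy-strand probes with a value the median was 0.05 charged (11 probes) and 0.23 total (12 probes). At an unadjusted p under 0.05, mHis alone passed in each table, 1 of 11 for charged and 1 of 12 for total tRNA, against backgrounds of 30.4% and 31.4%.

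The heavy-strand and light-strand medians therefore lay 0.05 against 0.48 for charged and 0.23 against 1.07 for total tRNA, beside medians over all probes of 0.12 and -0.02 and over the cytosolic probes of 0.08 and -0.07. No test was made of the strand groups, because probes are not replicates of the cells and neighbours share a precursor. With the median of all probes or of the cytosolic probes set to 0, the charged heavy-strand median becomes -0.070 or -0.031, while the other strand medians keep their sign. Within the light-strand group the values ranged from -0.84 to 2.34 charged and from -0.09 to 2.92 total, which is wider than the distance between the medians. The mSer probe, which cannot be placed, stood at 0.61 charged (SE 0.77) and 1.17 total (SE 0.72) in the authors' deposited tables.

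The probes were also grouped by modification of the first anticodon base, and in neither group did all probes share a direction. Of the 4 tRNAs with queuosine, the values of mAsn and mAsp were positive and that of mHis negative in both tables, mAsp without passing, and mTyr was read too rarely to give a sign. The most negative called value of total tRNA and the most positive one thus both belonged to queuosine tRNAs. The tRNAs read by mLys, mGlu, mGln and mTrp carry a taurine-modified uridine there, as does 1 of the leucine tRNAs, which the mLeu probe may or may not read. Of these 4 probes, or 5 with mLeu, 0 passed by the DESeq2 adjusted p in either table (backgrounds 20.3% charged and 20% total). The medians of the 4 were 0.01 charged and 0.82 total, and with mLeu 0.17 and 0.57. Of the 4 probes, 2 were positive for charged and 3 for total tRNA, and of the 5 with mLeu, 3 and 4. At an unadjusted p under 0.05, 0 of them passed for charged tRNA (background 30.4%) and 2, mGlu and mGln, for total tRNA (background 31.4%).

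Charged and total values were then compared probe by probe, on the reading that the fold changes of both tables run in the same direction between the lines, which the tables do not state. Across the 19 mitochondrial probes with both values, which share their libraries, the 2 measures had a Pearson r of 0.63 and a Spearman rho of 0.39, and 14 probes had equal signs in both. Among the 18 with a mean count of at least 50 in both tables rho was 0.54, and without mAsn and mHis it was 0.34 over 16. Over the 50 cytosolic probes rho was 0.66, and 36 had equal signs. Charged tRNA is a part of total tRNA, so the measures are not independent in kind. A common direction is the reading under which most cytosolic probes, 36 of 50, have equal signs in the part and the whole. With 1 table turned, those 36 would have opposite signs and each correlation would change its sign. Which reading holds was not tested.

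The difference between the charged and the total value passed for 1 of 19 mitochondrial probes, mPro, against a background of 4.35% of 69 probes (4.35% negative, 0% positive). For mPro the charged value lay 1.62 log2 units under the total value (a difference of -1.62, SE 0.49, 95% interval -2.59 to -0.65, normal test, adjusted p = 0.0236 over all probes). This is a 3.08-fold difference between the lines in the ratio of charged to total signal, each taken relative to the other probes of its table. It is not a measured change in the charged fraction of this tRNA. With the median of all probes set to 0 in each table, the difference was -1.76. The call was lost with a t reference of 8 degrees of freedom (adjusted p = 0.256), under which mPro was the 1 probe with an unadjusted p under 0.05. With the total table turned to the opposite direction the difference would be -0.06 (adjusted p = 0.937), so the result depends on that reading. The test takes the charged and total libraries as independent.

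For mHis the charged value was less negative than the total value by 0.75 (SE 0.35, adjusted p = 0.44), and for mGlu it was lower by 0.90 (a difference of -0.90, SE 0.49, adjusted p = 0.514). Neither passed. With the total table turned both would pass, mHis at -2.51 (adjusted p = 1.36e-11) and mGlu at 1.25 (adjusted p = 0.0395), as would mAsn and mAla. For mAsn the difference was -0.58 (SE 0.92), with a 95% interval of -2.38 to 1.21. mLeu had a difference of -0.20 (SE 0.53, 95% interval -1.24 to 0.85). On the reading of a common direction, over all mitochondrial probes 13 of 19 differences were negative, with a median of -0.28, against 19 of 50 and a median of 0.10 for the cytosolic probes. Of the 7 light-strand probes 6 were negative, with a median of -0.59, and of the 11 heavy-strand probes 6, with a median of -0.19. These counts and medians turn with the reading: with the total table turned, 5 of 19 mitochondrial values would be negative with a median of 0.58, against 27 of 50 and -0.07 for the cytosolic probes. For the light-strand probes 2 of 7 would then be negative with a median of 1.48, and for the heavy-strand probes 3 of 11 with a median of 0.53.

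The mean counts allow a description that does not depend on the direction of the tables. Each probe's percentage of the summed mean counts in the charged table was divided by its percentage in the total table, over both lines together, where a ratio of 1 means an equal place in both kinds of library. It is no fraction of charged tRNA, and the tables give no error for it. The ratio had a median of 0.62 over the 18 mitochondrial probes with a mean count of at least 50 in both tables, against 1.07 over 49 cytosolic probes. It lay under 1 in 17 of these 18 and in 18 of the 49. The exception was mPro at 1.44, followed by mAla at 0.95 and mVal at 0.81, and the lowest was mIle at 0.37. For mLeu it was 0.69, for mHis 0.70 and for mAsn 0.52.

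Each mitochondrial probe was also set against the cytosolic probes for the same amino acid within the same table, where the normalization cancels. Of 43 such pairs for charged tRNA 7 passed (16.3%, normal test on the deposited values, Benjamini-Hochberg adjusted over the pairs), and of 48 pairs for total tRNA 5 passed (10.4%). They involved 4 amino acids for charged tRNA (asparagine, histidine, leucine and proline) and 3 for total tRNA (alanine, asparagine and histidine). With a t reference of 4 degrees of freedom 0 pairs passed in either table (adjusted p from 0.146 to 0.397 for the pairs that had passed), and 6 charged and 5 total pairs had an unadjusted p under 0.05. A mitochondrial probe shares its amino acid with several cytosolic ones, so pairs are not independent.

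Histidine had the smallest adjusted p of all pairs in both tables. The cytosolic His_GTG probe stood at 0.49 charged (DESeq2 adjusted p = 0.0112) and 0.22 total in the authors' deposited tables, opposite in sign to mHis. The value of mHis minus that of His_GTG was -1.37 charged (SE 0.28, adjusted p = 4.93e-05) and -1.85 total (SE 0.33, adjusted p = 1.60e-06). For asparagine, mAsn minus Asn_GTT was 3.23 charged (SE 0.73, adjusted p = 0.000206) and 2.52 total (SE 0.61, adjusted p = 0.000994), and the pair with Asn_ATT also passed in both tables. Asn_GTT itself stood at -0.89 charged (DESeq2 adjusted p = 1.77e-06) and 0.40 total (DESeq2 adjusted p = 0.155) in the authors' deposited tables.

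Proline differed from its cytosolic counterparts in charged tRNA. mPro minus Pro_AGG was -1.13 (SE 0.28, adjusted p = 0.000742), and the pairs with Pro_CGG and Pro_TGG stood at -0.99 each. For total tRNA the same 3 differences were 0.84, 0.85 and 0.55, none past the threshold (adjusted p between 0.214 and 0.468). The cytosolic proline probes lay between 0.15 and 0.29 charged and between -0.06 and 0.23 total in the authors' deposited tables. The alanine probe mAla lay above Ala_CGC by 1.63 (SE 0.48, adjusted p = 0.00904) and above Ala_AGC by 1.45 (SE 0.49, adjusted p = 0.029) for total tRNA. The third alanine pair, with Ala_TGC, stood at 1.17 total and did not pass (adjusted p = 0.0762), nor did any of the 3 charged alanine pairs. With a correlation of -0.5 between the estimates both alanine calls were lost (adjusted p = 0.0574 and 0.128).

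For leucine, the amino acid the study follows, mLeu lay above Leu_CAG by 0.90 charged (SE 0.33, adjusted p = 0.0363) and by 1.26 total (SE 0.51, adjusted p = 0.0763). The charged pair passed, and it was lost with a correlation of -0.5 between the estimates (adjusted p = 0.136). The remaining 4 leucine pairs did not pass in either table. Leu_CAG itself stood at -0.73 charged (DESeq2 adjusted p = 4.39e-04) and -0.89 total (DESeq2 adjusted p = 6.60e-04) in the authors' deposited tables. It passed in both tables, while mLeu passed in neither (DESeq2 adjusted p = 0.705 charged and 0.585 total). For tryptophan the pair did not pass, with mTrp minus Trp_CCA at -1.41 charged (SE 0.78, adjusted p = 0.274) and -0.95 total (SE 0.91, adjusted p = 0.52).

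Nuclear genes of the mitochondrial tRNA pathway were measured in mouse samples of the series, not in these lines. The polysome table compares control 4T07 mammary carcinoma cells (shCtrl) and cells with hairpins against Lars (shLars3, shLars4), with mRNA on 1 to 2 and on 3 or more ribosomes, and its contrast and direction are not stated. Of 22 tested genes of mitochondrial synthetases and their partners, 3 had negative calls (background 17.5%) and 0 positive ones (background 10.4%). At an unadjusted p under 0.05, 9 of the 22 were negative and 1 positive. Over all 24421 entries, of which 13485 had an adjusted p, the counts were 3143 and 1998. These were not limited to entries with an adjusted p, as those of the list were. The list and all entries therefore cannot be compared as shares on 1 basis. The median of the 22 genes was -0.34, against -0.12 over all tested genes. The 3 called genes were Cars2 at -0.42, the methionyl-tRNA formyltransferase gene Mtfmt at -0.54 and Kars, whose enzyme serves both compartments, at -0.43 in the authors' deposited table. Lars2 had no p-value there and stood at 0.56 (SE 1.06), with a mean count of 17534, the highest of this list. The SE of the other genes of the list ran from 0.11 to 0.30, so the Lars2 value is imprecise despite its count. Of 21 genes of mitochondrial tRNA processing and modification, 3 had negative calls and 1 a positive call. These were Hsd17b10, a part of the mitochondrial RNase P, at -0.83, Trit1 at -0.56 and Yrdc at -0.65, and Nsun3, the methyltransferase of the mitochondrial methionine tRNA, at 1.68 in the authors' deposited table. Of 7 transcription genes 2 had negative calls, Tfb1m at -0.70 and Tefm at -0.44 in the same table. The library kit does not mark strand, so reads of overlapping genes cannot be told apart in these values.

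Translational efficiency in knockdown against control 4T07 cells was called for 0 genes of these lists by the xtail adjusted p (backgrounds 0.0508% negative and 0% positive). At an unadjusted p under 0.05, 1 gene of the lists passed (23, 5 and 20 genes tested), beside 624 of 9833 genes in all. It was Qtrt1, a subunit of the enzyme that inserts queuosine, at -0.58 in the authors' deposited table. Lars2 stood at -0.46 in efficiency (xtail adjusted p = 0.829) and at 0.11 in mRNA in that table. RiboTag libraries held ribosome-bound mRNA of PyMT tumors in C57BL/6J mice with MMTV-PyMT, MMTV-Cre and rpl22HA fl/wt, and compared Lars fl/wt with Lars wt. There 0 genes passed by the DESeq2 adjusted p (background 0%). At an unadjusted p under 0.05, 280 of all 23487 genes passed. The 1 among them from these lists was Trmt61b, a tRNA methyltransferase gene, at -1.07. Lars2 stood there at -0.19 (SE 0.47) in the authors' deposited table, whose direction between the genotypes is not stated.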

How the data were processed

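Charged and total tRNA libraries followed a published tRNA profiling protocol, per the labels' protocols. Tools named in the submitters' processing notes are DESeq2, HTSeq, featureCounts, SAMtools, STAR 2.5.2a and Bowtie2 2.4.1, with the mouse build mm10; no role is stated for any of them. The reference of the human probes, their sequences and the direction of the fold changes are not given in the sources used here. The tRNA, polysome and RiboTag tables hold DESeq2 columns, per the file headers. Each deposited mean normalized count is a signal over the libraries in the model. Each log2 fold change and its SE were deposited after size factor normalization, and the Wald score deposited beside them equals their ratio, as checked. The adjusted p-values deposited for tRNA equalled a Benjamini-Hochberg adjustment over the probes that have one. The total table had none for 5 probes, whose mean counts were 133.7 or less. The efficiency values come from xtail, per the file headers, and rows whose symbol had become a date were left out.

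All 20 mitochondrial probes were described; a probe passed at an adjusted p under 0.05. Differences between tables or between probes had the root of the summed squared SE as error, a normal reference and a Benjamini-Hochberg adjustment. The test of charged minus total was run on simulated data, in 100 sets of 69 probes with 10 shifted by 2 log2 units. It recovered 98.6% of the shifted probes with an SE under 0.5, and 4.39% of its calls were false. The simulated errors were normal, independent and drawn from the deposited SE, with a common direction, as the test assumes. The simulation therefore checks the calculation and cannot show that these assumptions hold for the libraries. The comparison of probes for the same amino acid, the share ratio and the results marked so in the closing section were added after seeing the data. The members and lists were chosen with earlier results of these data known. Cytosolic probes were named as counterparts, and mouse genes by smallest adjusted p, up to 3 per list and direction, with Lars2 throughout. Qtrt1 and Trmt61b were named after their values were seen. Strands and gene order are textbook knowledge. No table has a column per library, so no count test could be run and the deposited tests were used. Python 3.11.15, numpy 2.4.6, pandas 2.3.3 and scipy 1.17.1 were used.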

Additional observations from a re-analysis of the deposited data

Results flagged for a closer look

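The mitochondrial proline probe, mPro, had values of opposite sign in the authors' deposited tables, -0.84 for charged tRNA, which passed, and 0.78 for total tRNA, which did not (DESeq2 adjusted p = 0.177, 95% interval -0.09 to 1.66). The test of the difference itself gave -1.62 log2 units (SE 0.49, adjusted p = 0.0236 over 69 probes, normal test on the deposited DESeq2 values). The other 18 mitochondrial probes with both values did not pass this test. It holds only if the fold changes of both tables run in the same direction between the lines.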

How the results depend on the processing

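No paired analysis was possible because the tables hold no value per library, so neither the replicate block nor leaving out a replicate was run. With a t reference of 4 degrees of freedom, 0 mitochondrial probes passed for charged and 0 for total tRNA, and 0 pairs of a mitochondrial and a cytosolic probe passed in either table. With a t reference of 8 degrees of freedom, 0 mitochondrial probes passed for the difference of charged and total. Both t references raise the p of every probe, not of the mitochondrial ones alone. An adjusted p under 0.1 gave 5 probes for total tRNA and 8 pairs for total tRNA. A correlation of -0.5 between the probes of a pair gave 3 pairs for total tRNA. A correlation of 0.5 between the charged and the total estimate gave 2 probes for their difference, mPro and mHis, and turning the total table gave 4 (mAla, mAsn, mGlu and mHis). With the median of all probes set to 0, the charged heavy-strand median became -0.070, and with that of the cytosolic probes -0.031. The first also turned the charged values of mGly to -0.070 and of mThr to -0.11. Turning the total table turned the sign of 12 differences: mAla 1.75, mAsn 5.26, mGln 1.54, mGlu 1.25, mGly 0.38, mHis -2.51, mLeu 0.53, mLys 0.41, mPhe 1.32, mSer 1.78, mThr 0.57 and mTrp -1.71. The other alternatives for the counts and strand medians, 33 in all, kept the direction and stayed within 1.5 times the count or within the median SE of the group. The alternatives for pairs, the groups without mAsn, mTyr or mLeu and the turned group medians were chosen after seeing the data. The SE from the DESeq2 model limits every value here, and mTyr and mArg are limited by their counts.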

Other observations

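For charged tRNA, the SE of 3 mitochondrial probes was high for their counts. Among the 11 mitochondrial probes with a mean count of at least 5000 charged, mSer, mAsn and mGln had an SE of 0.77, 0.71 and 0.60 in the authors' deposited table, and the other 8 lay between 0.21 and 0.36. Of the 46 cytosolic probes with such counts, none lay above 0.27. For total tRNA this did not hold for mGln, whose SE of 0.46 lay inside the range of the other 8 (0.25 to 0.58), and mAsn lay at its upper edge at 0.58, while mSer stood at 0.72. The floor of 5000 and these probes were chosen after seeing the data.

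Of the mitochondrial tRNA genes, 3 had a row in the values of the mouse RiboTag comparison, mt-Tp, mt-Tc and mt-Tn, all of the light-strand transcript, with mean counts of 3.71, 0.933 and 0.127 in the authors' deposited table. Their values of -0.03 (SE 1.90), -2.93 (SE 3.95) and -0.45 (SE 4.07) carry no precision. All 7 mitochondrial mRNAs with a row there were negative, from -0.89 for mt-Cytb to -0.05 for mt-Nd5, with a median of -0.64 against -0.01 over all genes. None of them passed at an unadjusted p under 0.05 (0 of 7). The 7 share their libraries, and mRNAs of a strand share a precursor, so their signs are not independent. Whether these reads came from ribosome-bound mRNA was not tested.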
